A study of Mus musculus with 2 samples.

Results

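The collagen chains were taken as every gene on the array whose name consists of Col, a number, the letter a and a number. The rule gave 43 genes on 68 non-control probes, out of 24323 named genes. The rule itself uses names and no measured value. Col26a1, which the array lists under the older name Emid2, lies outside the rule. On at least 1 array, 37 of the 43 genes had a signal well above background. Both tissues measured 32 of these, and the tooth array alone measured 5. No chain was measured on the skin array alone, and 6 chains were measured on neither array.

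To compare the tooth with the skin, total RNA from wild-type mice was hybridised to 1 single-colour array per tissue. The labels give postnatal day 0 for both tissues, and the study's methods name a stage 1 day later. The tooth germ holds dental epithelium and mesenchyme, whereas the skin holds epidermis, dermis and developing hair follicles. The number of animals behind each array is not stated. As each tissue had 1 array, no difference below has a replicate check, no test was run and no p-value was calculated. In bulk RNA, fewer cells of a type and less RNA per cell cannot be told apart.

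Collagens are extracellular proteins whose chains wind around each other in a helix, for which glycine must recur at regular steps along the chain. Fibrillar collagens build the fibres of bone, dentin, dermis and cartilage, fibril-associated collagens coat these fibres, and type IV collagens form the sheet of basement membranes. Dentin is a mineralised matrix made mainly of type I collagen by odontoblasts, and dermis is rich in collagens I and III.

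Each array carried 1 or more probes of 60 bases per chain, with 25 chains on 1 probe and 18 on several. The first 30 bases of probes are shown here, 5′ to 3′ as the files give them, for chains on which the comparison turns. They comprise both probes of the chain with the largest difference, the partner chains of types I and XI, and a chain higher in skin. Whether a probe lies in an exon, an intron or a UTR was not analysed here.
Col22a1, probe that stands for the gene: ctcctggaaaaccagtatgtcacctgccgg
Col22a1, other probe: tcaagttcctcatgctggtttcaattgtgt
Col1a1: tgaccaactgaacgtgaccaaaaaccaaaa
Col1a2: accaagaattccgtgtggaggttggccccg
Col11a1: aatgtcctttggaggaaggagatatgaatt
Col11a2: aaagaagataaagagagaaatgccaaaaat
Col4a6, probe that stands for the gene: ggcaaagcataacaagtacattctgagctc
Col4a6, other probe: cagtccctaatctcccctggctcgtgtctt

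In the mm9 build, the Col22a1 probes lay at chr15:71699345-71699404 and chr15:71628906-71628965 on the minus strand. The probes of Col1a1 and Col1a2 lay at chr11:94813115-94813174 and chr6:4490619-4490678 on the plus strand. Those of Col11a1 and Col11a2 lay at chr3:113923185-113923244 and chr17:34203113-34203172, also on the plus strand. The Col4a6 probes lay at chrX:137599990-137600049 and chrX:137601433-137601491 on the minus strand.

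A glycine codon stood at every repeat step over the whole probe in 2 of the 68 probes, 1 of Col15a1 and 1 of Col25a1, and other probes carried the repeat over part of their length. The 2 probes are shown whole, as they read the part of the transcript that defines the family, with the glycine codons in capitals.
Col15a1: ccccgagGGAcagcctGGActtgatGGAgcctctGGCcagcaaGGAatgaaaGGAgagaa
Col25a1: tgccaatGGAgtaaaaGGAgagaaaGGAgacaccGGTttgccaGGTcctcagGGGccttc

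The Col15a1 probe (chr4:47283786-47283845, plus strand, mm9) was measured on both arrays. The Col25a1 probe (chr3:130270497-130270556, plus strand, mm9) was measured on the tooth array only. Probes of different chains had little sequence in common. Among 2244 pairs of probes from different collagen genes, slid along each other without gaps, the closest pair shared 32 bases and the longest shared run was 15 bases.

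Levels are given as the log2 processed signal relative to the 75th percentile of the array, and differences as skin minus tooth on the same scale. A difference was called when it was at least 2-fold. Of the 37 measured chains, 17 (45.9%) were at least 2-fold higher in tooth, against 15.5% of the 17409 measured genes. In the opposite direction, 2 chains (5.41%) were at least 2-fold higher in skin, against 14.2% of all measured genes. The other 18 were within 2-fold. Among the 32 chains measured on both arrays, 12 (37.5%) were at least 2-fold higher in tooth, against 12.3% of the 15271 genes measured on both. For skin, the 2 chains made up 6.25%, against 11.4%. At 8-fold, 7 of the 32 chains (21.9%) were higher in tooth, against 1.43% of the genes measured on both arrays. The median difference of the 37 chains was -0.93 and that of all measured genes -0.04. The fibrillar and fibril-associated classes supplied 12 of the 17 chains, and for 5 of the 17 the skin value was not well above background. With each such value set at the lowest signal the array could resolve, 15 of the 37 chains were at least 2-fold higher in tooth and the median difference was -0.48.

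**Figure D1:**
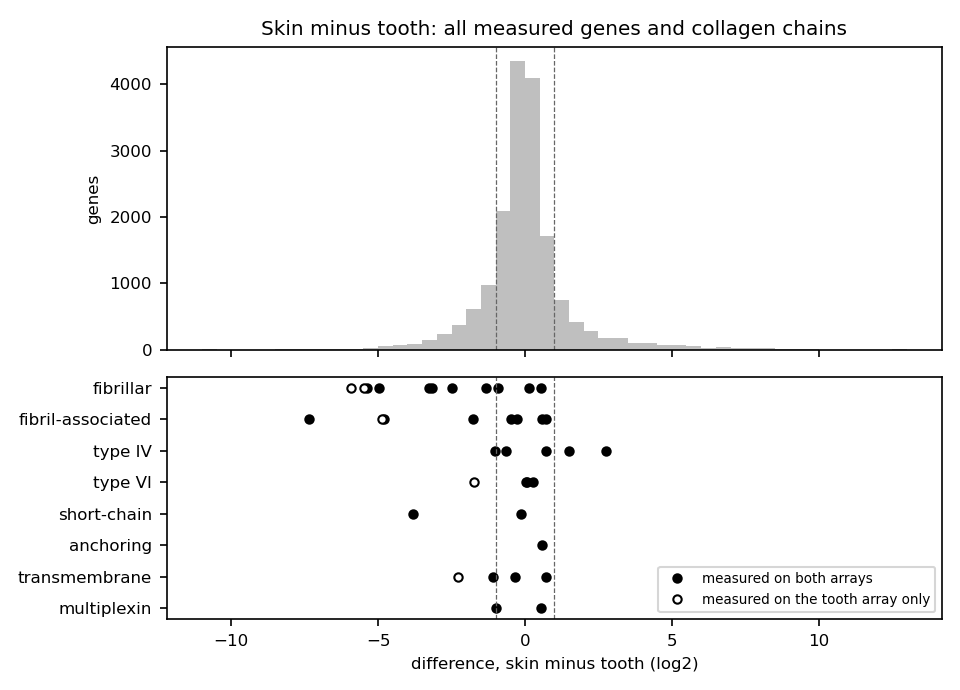
Skin minus tooth difference (log2, x axis) of the 17409 measured genes as a histogram of gene numbers (top) and of the 37 measured collagen chains by class (bottom). Genes with differences below -11 or above 13 are counted in the end bars. Filled points are chains measured on both arrays, open points those measured on the tooth array only, and dashed lines mark 2-fold; 17 chains lie left of the lower line and 2 right of the upper line.

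Some whole-array properties bear on these values. The scaling factors, each array's 75th percentile, were 428 for tooth and 276 for skin. Probes well above background made up 56.7% (tooth) and 52.5% (skin). When the arrays were scaled by 8 spike-in transcripts in place of the percentile, every difference moved towards tooth by 0.62. The median of all genes then stood at -0.67, 32.4% of genes were at least 2-fold higher in tooth and 9.04% in skin, and the chains gave 21 and 1. The error model of the extraction software gave the chains measured on both arrays a median error of 0.20 per difference (0.065 to 0.40). This error covers noise within an array only. No collagen spot was saturated.

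The labels of the tissues were checked against marker genes. All 5 epidermal markers (Krt1, Krt10, Flg, Lor and Krtdap) were at least 2-fold higher in skin, with a median difference of 9.11. All 6 ameloblast markers (Amelx, Ambn, Enam, Mmp20, Amtn and Klk4) were at least 2-fold higher in tooth. In tooth their levels ran from 0.96 to 10.27, and in skin 5 of the 6 were not well above background.

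**Figure D2:**
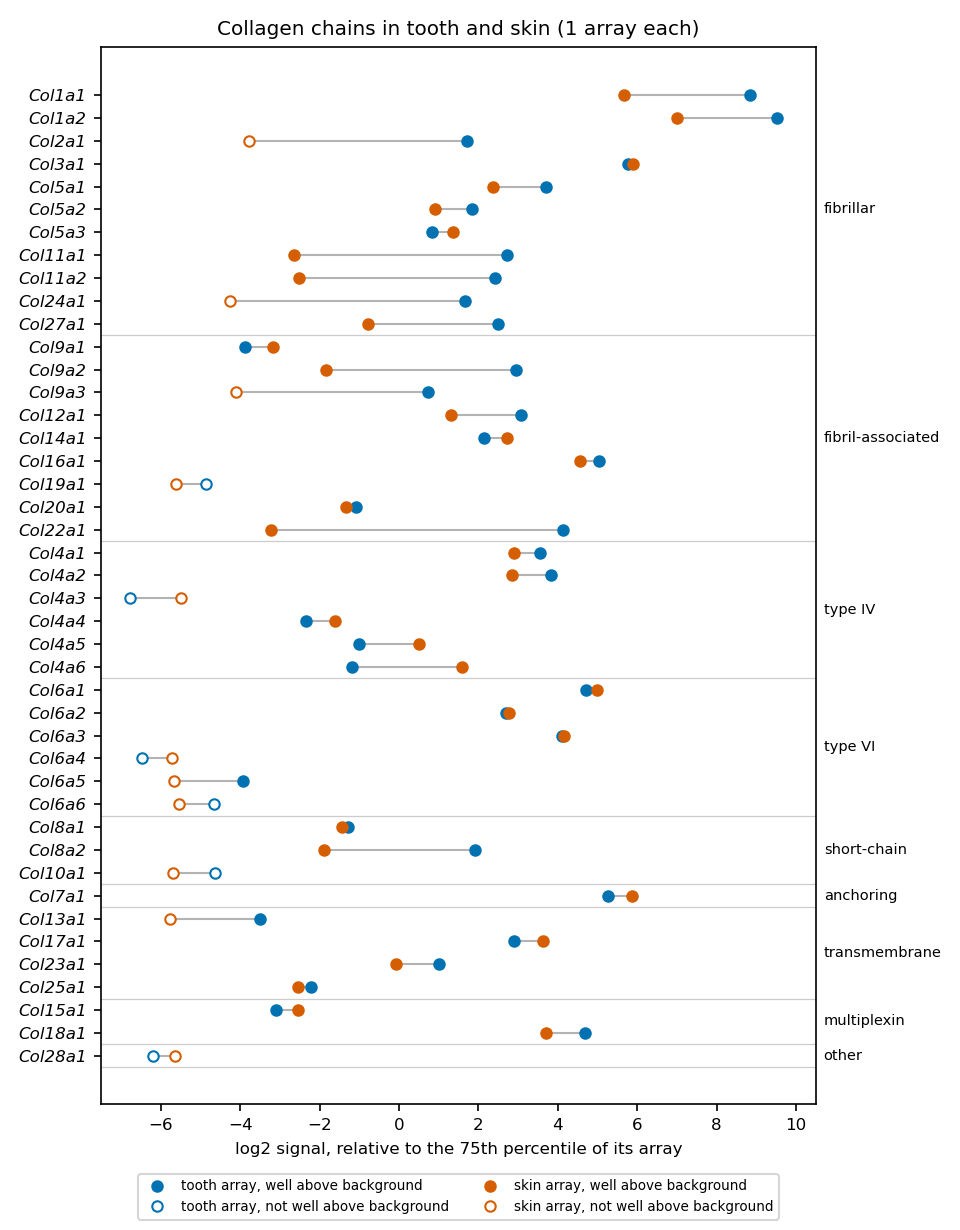
Level of each of the 43 collagen chains on the tooth array (blue) and the skin array (orange), as log2 signal relative to the 75th percentile of the array (x axis), with chains grouped by class (y axis). Open circles were not well above background; Col22a1, Col11a1 and Col11a2 show long lines between the tissues, and the type VI chains Col6a1, Col6a2 and Col6a3 nearly coincide.

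Of the fibrillar chains, all 11 were measured, 9 of them on both arrays. At least 2-fold higher levels were found in tooth for 8 and in skin for 0, and the median difference was -3.17. The shares of all measured genes were 15.5% in tooth and 14.2% in skin. Of the 9 chains measured on both arrays, 6 were at least 2-fold higher in tooth, with a median of -2.50. The share of all genes measured on both was 12.3%. Col1a1, the chain that forms type I collagen together with Col1a2, had a level of 8.85 in tooth and 5.68 in skin. The processed intensities behind these levels were 196939 and 14166. The difference of -3.17 was 8.97-fold, with rank 193 towards tooth among the 15271 genes measured on both arrays. Col1a2 had a level of 9.51 in tooth and 7.01 in skin (5.65-fold, difference -2.50). Both type I chains were thus bright on both arrays and higher in tooth. Col3a1, the chain of type III collagen, which runs with type I in dermis and other soft tissue, did not share this. Its level was 5.77 in tooth and 5.90 in skin, with a difference of 0.13 that turned to -0.50 under spike-in scaling.

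Chains of type V regulate the diameter of type I fibrils. Col5a1 had a level of 3.71 in tooth and 2.37 in skin (2.53-fold higher in tooth). For Col5a2 the levels were 1.85 and 0.92, a difference of -0.93 (1.91-fold), just within the 2-fold limit. Col5a3, an alternative chain of type V, had levels of 0.83 and 1.36 and a difference of 0.53, which became -0.09 under spike-in scaling.

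The fibrillar chains best known from cartilage also lay on the tooth side. Col11a1 and Col11a2, which form the core of thin cartilage fibrils, were measured on both arrays. Col11a1 had a level of 2.72 in tooth and -2.64 in skin (difference -5.36, 41.1-fold, rank 25). Col11a2 had levels of 2.43 and -2.53 (difference -4.95, rank 32). Col2a1, the main fibrillar chain of cartilage, had a level of 1.71 in tooth and was not well above background in skin, which put it at least 43.3-fold higher in tooth at this setting. The chains of types XXIV and XXVII are minor fibrillar collagens of developing skeletal tissues. Col24a1 stood at 1.67 in tooth and was too dim in skin for the well-above-background call, so it was higher in tooth by at least 42.3-fold at the same setting. Col27a1 had levels of 2.51 and -0.77 (9.71-fold higher in tooth). The size of these differences depended on how the background was treated. With normexp background correction they were smaller, at -4.17 for Col11a1, -3.79 for Col11a2, -3.49 for Col2a1 and -3.50 for Col24a1, so the folds and bounds given hold for the deposited background correction only. The direction was kept in each.

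As these chains are known from cartilage and bone, the marker genes of those tissues are given beside them. Of the 6 cartilage markers, 4 were measured, and 2 were at least 2-fold higher in tooth and 1 in skin. The shares of all measured genes were 15.5% in tooth and 14.2% in skin. Levels of the measured cartilage markers ran from -3.64 to 1.72 in tooth and from -5.58 to 2.11 in skin. Hapln1, a link protein of cartilage matrix, had a level of 0.64 in tooth and was not well above background in skin (at least 20.7-fold). Acan, the main cartilage proteoglycan, had levels of -1.43 and -2.80. Comp had levels of -3.64 and -2.39 and was higher in skin, and Sox9 had levels of 1.72 and 2.11. The cartilage matrilins Matn1 and Matn3 stayed near background in both tissues, as did Col10a1, the collagen of hypertrophic cartilage. The 6 odontoblast and bone markers (Dspp, Dmp1, Phex, Bglap, Ibsp and Sp7) were all at least 2-fold higher in tooth. Their levels ran from 0.33 to 7.86 in tooth and from -5.77 to -1.49 in skin, where 4 were not well above background. The part of either tissue in the differences of the fibrillar chains was not tested.

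Of the 9 fibril-associated chains, 8 were measured, 7 of them on both arrays, and Col19a1 was measured on neither. Higher levels by at least 2-fold were found in tooth for 4 and in skin for 0, with a median difference of -1.13. The shares of all measured genes were 15.5% in tooth and 14.2% in skin. Of the 7 chains measured on both arrays, 3 were at least 2-fold higher in tooth, with a median of -0.48. The share of all genes measured on both was 12.3%. The largest difference of any chain was that of Col22a1, a collagen of tissue junctions such as that of muscle and tendon. Its level was 4.14 in tooth and -3.23 in skin, with processed intensities of 7525 and 29.4. The difference of -7.37 was 165-fold, with rank 8 towards tooth among the genes measured on both arrays. With normexp background correction it was -6.95. The second Col22a1 probe, at the other site given above, had a level of 4.89 in tooth and was not well above background in skin. All 6 muscle markers (Acta1, Ckm, Myh3, Myog, Tnnt3 and Des) were at least 2-fold higher in skin, with a median difference of 3.12. The part of muscle or of other tissue in the Col22a1 values was not tested.

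Type IX collagen decorates cartilage fibrils. Col9a2 had a level of 2.95 in tooth and -1.85 in skin (difference -4.80, 27.9-fold, rank 41). Col9a3 had a level of 0.74 in tooth and was not well above background in skin, a fold of at least 22.2. With normexp background correction the differences shrank to -4.03 for Col9a2 and -2.53 for Col9a3. Their partner Col9a1 was faint though measured in both tissues, with a level of -3.87 in tooth and -3.17 in skin. The second Col9a1 probe gave -3.22 in tooth and was not well above background in skin. The first probe differed by 0.70 towards skin, and the second was measured in tooth alone, so the order of the tissues for Col9a1 is not settled.

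The other fibril-associated chains are found along fibrils of dense connective tissue. Col12a1 had levels of 3.08 in tooth and 1.30 in skin (3.43-fold higher in tooth), and its other probe was measured in neither. Col14a1 had levels of 2.14 and 2.72 at one probe (difference 0.58) and 0.44 and -0.33 at the other (difference -0.76). Its order between the tissues therefore depended on the probe. Col16a1 had levels of 5.05 and 4.57, a difference of -0.48, and its other measured probes gave -0.44 and -1.07. Col20a1 had levels of -1.07 and -1.33, a difference of -0.26.

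Type IV chains were the class with calls in skin. Of 6 chains, 5 were measured on both arrays, 1 passed 2-fold towards tooth and 2 passed it towards skin, and the median difference was 0.72. Of all genes measured on both arrays, 12.3% passed 2-fold towards tooth and 11.4% towards skin. Col4a1 and Col4a2 form the type IV collagen of nearly all basement membranes. Col4a1 was printed in 10 spots per array, which ran from 3.42 to 3.62 in tooth (SD 0.055) and from 2.72 to 2.98 in skin (SD 0.071). The spots of the tissues did not overlap, and the difference of the means was -0.66 (1.58-fold). Spots of 1 array share their RNA and are not replicates. Col4a2 had levels of 3.84 and 2.84, 2.01-fold higher in tooth and just past the 2-fold limit. In the authors' value table it lay just inside, at -0.99.

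Col4a5 and Col4a6, which form another network of the basement membrane under epidermis and in smooth muscle, went the other way. Col4a5 had a level of -1.01 in tooth and 0.50 in skin. The difference of 1.51 (2.85-fold) fell within 2-fold under spike-in scaling (0.89). Col4a6 had levels of -1.18 and 1.58, a difference of 2.76 (6.78-fold). The second Col4a6 probe gave -1.44 and -0.95, a difference of 0.49. Col4a4 was faint though measured in both tissues, at -2.34 and -1.62, and its partner Col4a3 was well above background in neither tissue. The other probes of Col4a4 were measured in neither. In the RefSeq annotation (GRCm38.p6), the start sites of Col4a1 and Col4a2 lie 21 bases apart on opposite strands and those of Col4a5 and Col4a6 1343 bases apart. The basal epithelial markers were bright on both arrays, with differences of 0.94 for Krt5, 1.19 for Krt14 and 0.16 for Trp63. Of the endothelial markers, 3 of 5 were at least 2-fold higher in tooth and none in skin, against 15.5% and 14.2% of all measured genes. Levels of these markers ran from -2.26 to 4.78 in tooth and from -4.35 to 5.21 in skin, where Tek was not well above background. Their part in the type IV values was not tested.

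The main type VI chains, which form beaded filaments around cells, were close between the tissues. Col6a1 had levels of 4.72 in tooth and 4.99 in skin (difference 0.26). Col6a2 had levels of 2.70 and 2.78 (0.08, and 0.83 at its second, fainter probe), and Col6a3 of 4.12 and 4.16 (0.04). These differences turned to -0.36, -0.54 and -0.58 under spike-in scaling, and none of them passed 2-fold in either setting. Col6a5 was faint, at -3.92 in tooth, and not well above background in skin. Its measured difference of -1.74 counted among the 17 chains, but its level in tooth was no higher than the lowest signal the skin array resolved, and no fold is given. Col6a4 and Col6a6 were well above background in neither tissue.

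Col7a1, which builds the anchoring fibrils that tie the epidermal basement membrane to the dermis, had levels of 5.28 in tooth and 5.86 in skin. The difference was 0.58, and -0.04 under spike-in scaling. Col17a1, a transmembrane collagen of hemidesmosomes, had levels of 2.89 and 3.62 (0.72, 1.65-fold higher in skin). Both of these epithelial attachment genes were within 2-fold.

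Among the other transmembrane chains, Col23a1 had levels of 1.01 in tooth and -0.08 in skin (2.14-fold higher in tooth), and its other probes gave differences of -1.19 and -1.68. Col13a1 was faint in tooth, at -3.51, and not well above background in skin, a fold of at least 1.16. Its measured difference of -2.27 counted among the 17 chains, but with the dim skin value at the bound it was -0.22. Col25a1 had levels of -2.22 and -2.55 (-0.33, and -1.13 as the mean of measured probes). Its other probes were not well above background in skin, and 1 of them was not well above background in either tissue.

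The short-chain collagens of type VIII form hexagonal networks, as under the endothelium of the cornea. Col8a1 had levels of -1.29 in tooth and -1.43 in skin (-0.14). Col8a2 had levels of 1.92 and -1.88, a difference of -3.80 (13.9-fold higher in tooth, rank 109). With normexp background correction the difference was -3.14. The second Col8a2 probe had a level of -2.95 in tooth and was not well above background in skin, so the fold rests on 1 probe.

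The multiplexins lie in basement membrane zones, and the end of the Col18a1 chain is cut off as endostatin. Col18a1 had levels of 4.69 in tooth and 3.71 in skin (-0.98, 1.97-fold), just within the limit, and its second probe gave -1.04. Col15a1 was faint though measured in both tissues, at -3.09 and -2.54, with a difference of 0.54 at the probe that reads the glycine repeat. Its other probes were too dim to be measured in skin. Col28a1 was well above background in neither tissue.

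**Figure D3:**
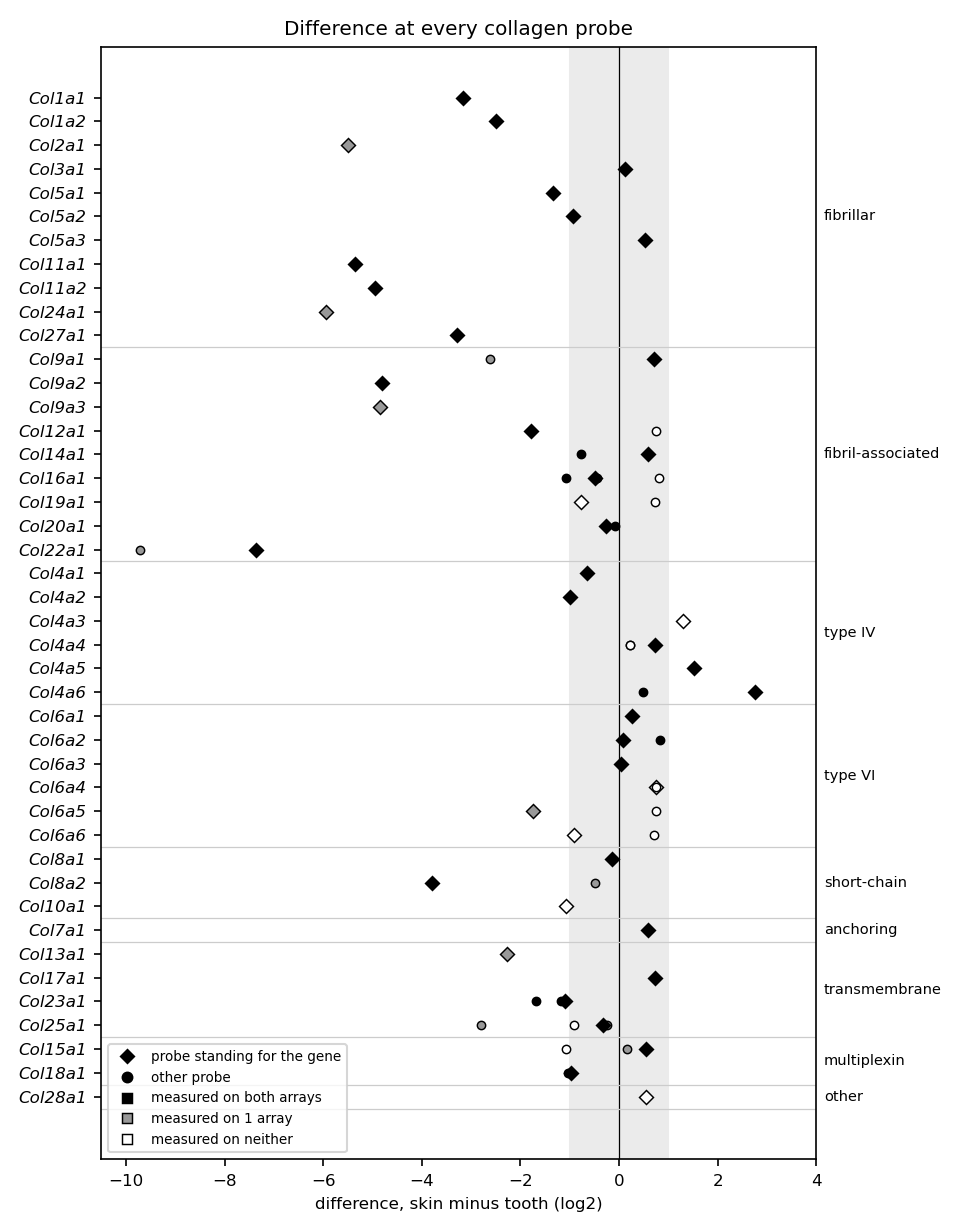
Skin minus tooth difference (log2, x axis) at each of the 68 collagen probes, by gene and class (y axis). Diamonds stand for the gene, circles are its other probes, and the fill gives whether the probe was measured on both arrays (black), 1 array (grey) or neither (white); the grey band is within 2-fold, and the probes of Col14a1 and Col4a6 that both arrays measured lie well apart.

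How far probes of 1 gene agree bears on how the single-probe chains can be read. Where exactly 2 probes of a gene were measured on both arrays (3241 genes), their differences lay apart by 0.26 in the median and by 0.94 at the 90th percentile. Probes too dim on either array did not enter these gaps. Among the collagens, 7 genes had at least 2 probes measured on both arrays. Their gaps ran from 0.067 to 2.27, and 2 of the 7, Col14a1 and Col4a6, exceeded 1.

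Chains that assemble into the same collagen could be set side by side in 11 pairs. Col4a3 was measured on neither array and Col9a3 on the tooth array only, so no gap is given for Col4a3 with Col4a4 or for Col9a2 with Col9a3. The differences of Col1a1 and Col1a2 lay 0.67 apart, those of Col5a1 and Col5a2 0.41, those of Col11a1 and Col11a2 0.41, and those of Col4a1 and Col4a2 0.35. In type VI, Col6a1 lay 0.18 from Col6a2 and 0.22 from Col6a3. These gaps were below the 90th percentile of the gap between probes of 1 gene. Only those of type VI were also below its median (0.26). Wider gaps were found for Col4a5 and Col4a6 (1.25), Col8a1 and Col8a2 (3.65) and Col9a1 and Col9a2 (5.50). In the last of these, Col9a1 was faint though measured on both arrays. Each of these wider gaps rests on the probe chosen to stand for the gene. The other probes of Col4a6 (difference 0.49), Col8a2 (-0.49) and Col9a1 (-2.62) lay well apart from it. Those of Col8a2 and Col9a1 were not well above background in skin.

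**Figure D4:**
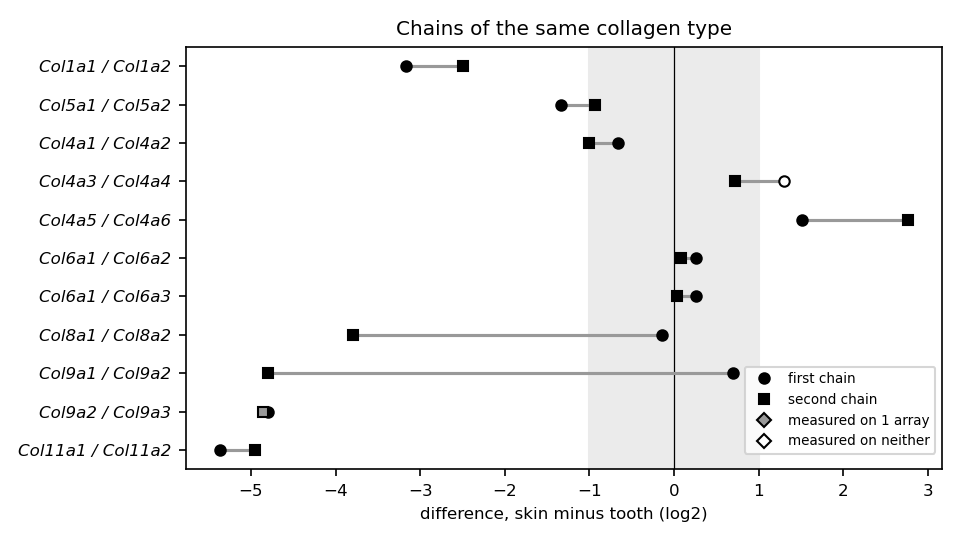
Skin minus tooth difference (log2, x axis) of chains that assemble into the same collagen, joined by a line per pair (y axis). Each chain is shown at the probe that stands for its gene. Circles are the first chain named and squares the second, with grey or white fill for chains measured on 1 or neither array; the pairs of types I, V, VI and XI lie close together, and those of Col8a1 with Col8a2 and Col9a1 with Col9a2 lie far apart.

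The sequences before the start sites are shown for chains that moved together, Col11a1 with Col11a2, and for Col1a2 as a chain bright in both tissues. They are the 250 bases upstream in RefSeq (GRCm38.p6), on the plus strand, at chr3:114030290-114030539 for Col11a1, chr17:34038888-34039137 for Col11a2 and chr6:4505368-4505617 for Col1a2. Capitals mark a CCAAT box, the GC box letters GGGCGG, or the TATA box letters TATAAA, on either strand.
Col11a1: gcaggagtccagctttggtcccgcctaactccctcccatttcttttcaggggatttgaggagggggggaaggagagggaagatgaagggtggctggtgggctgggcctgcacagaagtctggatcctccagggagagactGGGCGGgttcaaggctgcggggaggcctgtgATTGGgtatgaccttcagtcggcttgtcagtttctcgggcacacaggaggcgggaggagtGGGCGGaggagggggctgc
Col11a2: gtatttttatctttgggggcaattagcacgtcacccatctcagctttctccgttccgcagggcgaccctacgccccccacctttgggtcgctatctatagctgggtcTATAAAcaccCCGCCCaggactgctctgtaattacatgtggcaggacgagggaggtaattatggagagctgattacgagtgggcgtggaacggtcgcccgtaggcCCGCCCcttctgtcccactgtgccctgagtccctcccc
Col1a2: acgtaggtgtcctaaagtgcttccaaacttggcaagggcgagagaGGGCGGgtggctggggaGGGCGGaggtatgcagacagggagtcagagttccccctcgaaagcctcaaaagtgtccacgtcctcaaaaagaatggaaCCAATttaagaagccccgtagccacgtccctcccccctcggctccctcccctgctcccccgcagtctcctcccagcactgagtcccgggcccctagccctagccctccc

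The table held 38 such windows for 35 of the 43 chains. CCAAT was found in 13 of the 38 (34.2%), against 33.8% of all 32851 windows of this length. TATAAA was found in 5 (13.2%), against 12.4%. GGGCGG was found in 22 (57.9%), against 32.7%. The windows of Col11a1 and Col1a2 held the CCAAT and GC box letters, and that of Col11a2 the TATA and GC box letters. These matches describe letters in a window and say nothing of binding.

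Collagen chains are hydroxylated, folded, trimmed and cross-linked by dedicated proteins. All 30 genes of a list of such proteins were measured, 27 of them on both arrays. Of the 30, 23 were at least 2-fold higher in tooth and 0 in skin, and the median difference was -1.55. Among all measured genes, 15.5% were at least 2-fold higher in tooth and 14.2% in skin. Of the 27 measured on both arrays, 20 were at least 2-fold higher in tooth, against 12.3% of all such genes, and the median was -1.51. Colgalt2 counted among the 23, but its level in tooth (-3.81) was below the lowest signal the skin array resolved, and no fold is given. P4ha3 and P4ha2, catalytic subunits of the prolyl 4-hydroxylase that stabilises the helix, had differences of -7.65 (levels 7.28 in tooth and -0.38 in skin) and -4.05 (4.67 and 0.62). Plod2, which hydroxylates lysines at the chain ends for cross-links, had levels of 3.56 and -1.57 (-5.12). P3h3, a further member of the hydroxylase families, differed by -2.42. Differences past 4-fold were also found for the chaperones Fkbp10 (levels 6.41 and 2.82, difference -3.59) and Serpinh1 (6.79 and 4.49, -2.30). The same held for the procollagen trimming genes Pcolce (7.62 and 4.13, -3.49) and Adamts2 (4.24 and 1.31, -2.93). Among the lysyl oxidases, which form the cross-links, Loxl4 differed by -3.12 and Loxl2 by -2.42. The 7 genes within 2-fold were P3h1, P3h2, Colgalt1, Bmp1, Tll1, Adamts14 and Loxl1.

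Of 10 genes for receptors that bind collagen, all were measured, 5 were at least 2-fold higher in tooth and 2 in skin, and the median difference was -1.26. The shares of all measured genes were 15.5% in tooth and 14.2% in skin. Itga11, the integrin subunit for fibrillar collagen on mesenchymal cells, had levels of 4.25 in tooth and -1.32 in skin (-5.57). Itga10, a collagen receptor of chondrocytes, had levels of 2.47 and -1.49 (-3.95). Mrc2, which takes up collagen for degradation, had levels of 1.77 and -1.22 (-2.99), and Itga2 had -0.53 and -2.58 (-2.04). Itga1 and Gp6 were at least 2-fold higher in skin, with Gp6 not well above background in tooth.

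**Figure D5:**
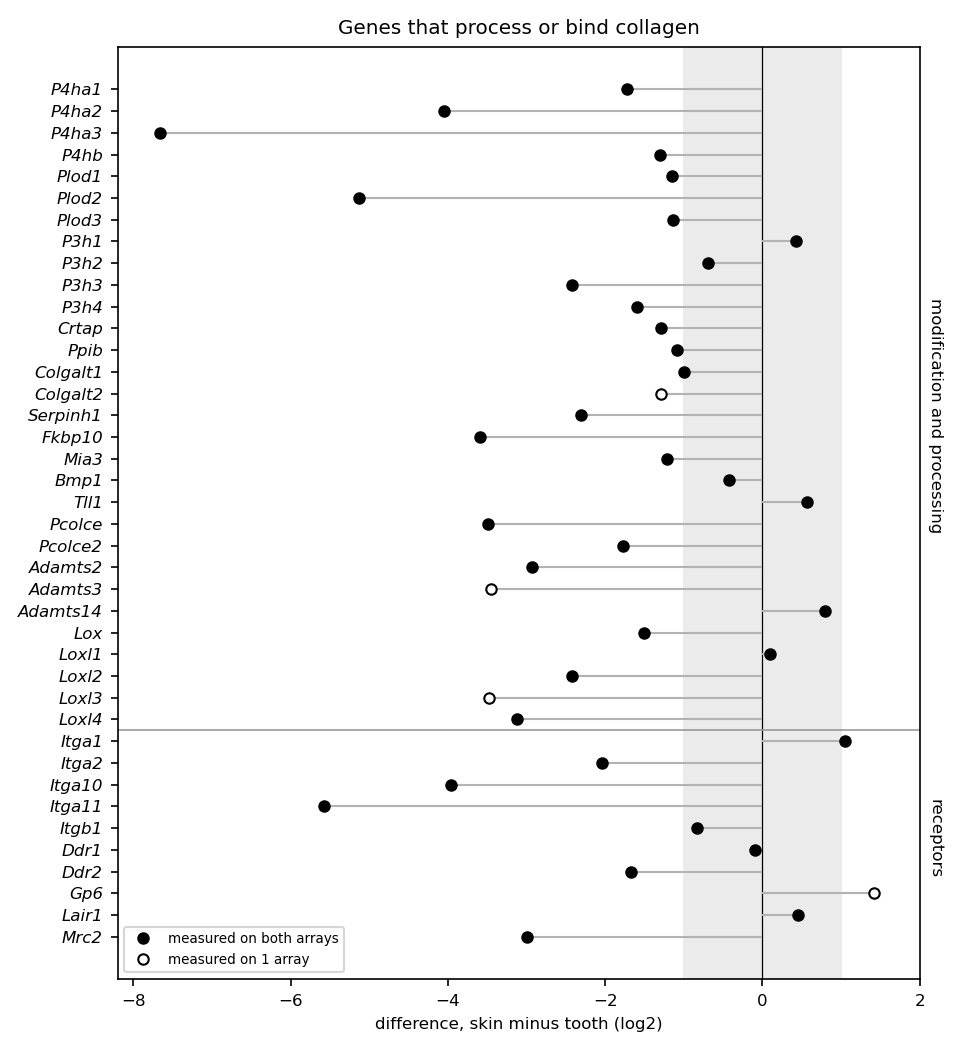
Skin minus tooth difference (log2, x axis) of 30 genes for collagen modification and processing and 10 collagen receptors (y axis). Filled points were measured on both arrays and open points on 1, and the grey band is within 2-fold; 23 of the 30 processing genes lie left of the band and none right of it.

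Mesenchymal genes other than collagens are given beside these lists. All 5 mesenchyme markers were measured on both arrays, with levels from 1.07 to 7.03 in tooth and from -1.54 to 6.11 in skin. Lum (-2.97), Pdgfrb (-2.61) and Pdgfra (-2.43) were at least 2-fold higher in tooth, and Vim (-0.98) and Dcn (-0.93) were within 2-fold. Of all genes measured on both arrays, 12.3% were at least 2-fold higher in tooth. All 5 fat markers were at least 2-fold higher in skin, with a median difference of 4.07. The median of the 4 Schwann cell markers was 0.19. The part of tissue makeup in the collagen differences was not tested.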

How the data were processed

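Per the file headers, the authors deposited spot intensities from Agilent Feature Extraction (version 10.7.3.1), background-subtracted and detrended, on the mm9 build. The authors also deposited a value table, a linear ratio of each intensity to 1 factor per array; it served as an alternative. The other columns read were yes-or-no calls and coordinates. From each array's log2 intensity, the 75th percentile over non-control probes was subtracted. Outlier spots (137 tooth, 146 skin) were left out, and spots of a probe were averaged. A probe was measured when over 50% of its spots were well above background, and the probe with the highest mean stood for its gene. Where 1 array was dim, the fold is a bound against the lowest signal that array resolved (-4.52 tooth, -3.73 skin). Names came from RefSeq (GRCm38.p6) for 27234 of 33182 named probes. Every chain was named. Of the processing and receptor lists, genes measured on both arrays and at least 4-fold different were named, with those a result turns on. The cell type markers were named in part only. The members and lists were chosen with earlier results of these data known. The precision is limited by 1 array per tissue. Median SD among spots of a probe was 0.077 (tooth) and 0.088 (skin). Scripts used Python 3.11.15, pandas 2.3.3 and limma 3.58.1 (normexp, offset 50) and were tested on simulated data.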

Additional observations from a re-analysis of the deposited data

How the results depend on the processing

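The number of chains at least 2-fold higher in tooth was 15 to 21 of 37 over the alternatives that kept the same chains, 12 of 32 for chains measured on both arrays and 18 of 43 with no filter. The share of all genes moved as well, with 9.60% under normexp (16 of 37 chains) and 32.4% under spike-in scaling (21 of 37). The number in skin was 1 under spike-in scaling and 3 without a filter on dim probes. The median of all measured chains (-0.93) became -1.18 under median scaling, -1.55 under spike-in scaling, -0.57 with normexp background correction, -0.41 for chains measured on both arrays and -0.48 with dim values at the bound. The median of the fibrillar chains (-3.17) became -3.41, -3.79, -2.90 and -2.50 under the first 4 of these. That of the fibril-associated chains (-1.13) became -1.38 under median scaling, -1.75 under spike-in scaling, -1.37 with the mean of measured probes, -0.48 on both arrays and -0.77 with no filter. The type IV median (0.72) became 0.47 under median scaling, 0.10 under spike-in scaling and 1.01 with no filter. The type VI median (0.06) turned to -0.19 under median scaling and -0.56 under spike-in scaling. The processing list (-1.55) gave -1.80 under median scaling, -2.17 under spike-in scaling and -1.29 with normexp. Median and spike-in scaling moved the median of all genes from -0.04 to -0.29 and -0.67. Col6a5 reversed to 0.19 with its dim value at the bound. With normexp, Col6a5 (-0.05) and Col13a1 (-0.01) fell within 2-fold, and differences against faint skin values drew closer to 0, with -3.49 for Col2a1, -3.50 for Col24a1, -2.53 for Col9a3, -4.17 for Col11a1, -3.79 for Col11a2, -4.03 for Col9a2 and -3.14 for Col8a2. The same correction gave -6.95 for Col22a1. With the mean of measured probes, Col4a6 became 1.62, Col8a2 -2.15, Col22a1 -8.54, Col9a1 -0.96, Col14a1 -0.09 and Col25a1 -1.13. The cause of the other shifts was not tested.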
